A study of Mus musculus with 25 samples.

Results

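The collagen chains were taken as every probe set whose platform gene symbol is Col, a number, a and a number, such as Col1a1. This gave 82 of the 45101 probe sets of the value table, for 42 of the 18194 genes that the probe sets name singly. By type they comprised 11 fibrillar genes (21 probe sets), 8 genes of basement membranes (15), 5 genes of the beaded filament collagen (7) and 18 genes of other types (39). A gene with several probe sets is described by its lead probe set, the one with the highest mean over all arrays.

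RNA came from 3T3-L1 adipocytes, a mouse fibroblast line that is differentiated into fat cells in culture, and was hybridised to 25 one-colour Affymetrix arrays. Cells given LA served as the control and cells given CLA as the treatment. The labels leave both abbreviations unexplained. By common usage LA is linoleic acid and CLA its conjugated form. The 8 groups were LA at 4 h (3 arrays), CLA at 4 h (2), LA at 8 h (3), CLA at 8 h (3), LA at 12 h (4), CLA at 12 h (4), LA at 24 h (3) and CLA at 24 h (3). The LA arrays of a time were the control for that time alone, and all groups were the same cell line. The main fit took its spread and its array-set terms (described below) from all 25 arrays. Arrays of other times thus entered the fitted differences at 4 and 8 h, where some arrays had no partner in their set. Neither dose nor isomer of CLA is stated in the labels. The titles call the arrays of a group biological replicates without saying which cultures they came from. The p-values therefore measure spread between these arrays, in the main fit only the spread left within array sets (described below). One cultured line is a model of fat cells without the vessels, immune cells and stroma of adipose tissue.

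Collagens are the main structural proteins of the extracellular matrix, secreted as helices of intertwined alpha chains. Fibrillar collagens such as types I, III and V form the fibres of connective tissue, type IV forms the network of basement membranes, and type VI forms beaded microfilaments between cell and matrix. Preadipocytes make much fibrillar collagen. During differentiation the matrix is remodelled towards a basement membrane that surrounds each fat cell. CLA against LA at each time asks whether the treatment moved these transcripts.

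Col4a1 and Col4a2 encode the partner chains of the most widespread type IV collagen, and their genes lie head to head. They had nearly equal CLA minus LA differences at 24 h (below), so their start regions are shown. Such likeness was not particular to the pair: Col6a1 and Col18a1, both on chromosome 10, differed by 0.22 and 0.24 at 24 h. The pair was less alike at 4 and 12 h, and no collagen was called in the main fit. RefSeq (GRCm38.p6) gives a window of 250 bases before to 50 bases after each annotated start, chr8:11312777-11313076 on the minus strand for Col4a1 and chr8:11312555-11312854 on the plus strand for Col4a2. The windows share 78 bases, chr8:11312777-11312854, read in opposite directions. Capitals mark CCAAT and GGGCGG on either strand (ATTGG and CCGCCC where reversed), the letters known from CCAAT boxes and GC boxes. Within a window these matches do not overlap each other, and neither window holds TATAAA on either strand.
Col4a1: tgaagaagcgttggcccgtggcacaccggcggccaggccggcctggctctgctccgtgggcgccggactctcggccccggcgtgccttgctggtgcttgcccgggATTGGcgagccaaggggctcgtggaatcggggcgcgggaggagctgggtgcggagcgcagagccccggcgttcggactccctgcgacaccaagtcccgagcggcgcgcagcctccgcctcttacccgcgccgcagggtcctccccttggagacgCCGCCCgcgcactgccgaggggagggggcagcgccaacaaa
Col4a2: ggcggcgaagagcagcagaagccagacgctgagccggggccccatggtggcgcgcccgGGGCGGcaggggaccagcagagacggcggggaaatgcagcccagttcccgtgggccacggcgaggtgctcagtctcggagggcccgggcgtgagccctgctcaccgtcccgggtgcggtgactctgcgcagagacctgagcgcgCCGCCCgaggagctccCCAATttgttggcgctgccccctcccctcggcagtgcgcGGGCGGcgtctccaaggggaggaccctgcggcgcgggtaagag
The Col4a1 window holds 1 CCAAT and 1 GGGCGG, and the Col4a2 window 1 CCAAT and 3 GGGCGG. The GGGCGG of Col4a1 lies in the shared bases and is the same site as the last GGGCGG of Col4a2, so both counts include it. Of all 32851 RefSeq windows of this length, 37.4% hold CCAAT, 35.7% GGGCGG and 13.6% TATAAA. Windows were found for 33 of the 42 collagen genes. Among their 36 windows the shares were 36.1%, 61.1% and 13.9%. A match is a description of these letters and not a binding site.

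Levels are given as normalised intensity, a linear value after quantile normalisation over all 25 arrays, and are compared between arrays for 1 probe set but not between probe sets. Differences are CLA minus LA on the log2(intensity + 50) scale with their standard error (SE), and the offset of 50 understates differences of dim probe sets. The arrays fell into 5 sets (A to E) that the labels do not name, found by clustering on all tested probe sets without use of the treatment. Set B held all 8 arrays numbered replicate 2. Set C held 5 arrays of low mean intensity (72.6 to 98.6 as deposited), 3 of LA and 2 of CLA, and LA 4 h replicate 1 of set A was as low (77.1). The sets entered the fit as a term. Standard errors and p-values of that fit measure the spread left within the sets, which were found from these same values. An LA and a CLA array of the same time occurred together in 2 sets at 4 h, 2 at 8 h, 4 at 12 h and 3 at 24 h. Mean intensity per array ran from 72.6 to 149 before normalisation. The actin 3' to 5' ratio, a sign of RNA quality, reached 8.11 (LA 4 h replicate 1) and 5.67 (LA 12 h replicate 1), and at most 3.32 elsewhere. Of 9 adipocyte markers, 8 (such as Fabp4, Adipoq and Lpl) were above the median of the array in all 25 arrays, and Lep was in 4. Of 9 preadipocyte and fibroblast markers, 7 were also above it in all 25, so this cut does not tell these cell states apart.

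No collagen probe set passed the test at any time. Probe sets were tested if 2 or more arrays had them above that array's median, a filter that kept 57 of the 82 members (34 of 42 genes). At 4, 8, 12 and 24 h, limma called 0, 0, 0 and 0 of these 57 (Benjamini-Hochberg adjusted p under 0.05 over all 32488 probe sets tested). Of all probe sets tested, 0.0646%, 3.03%, 5.25% and 5.2% were called at those times. An unadjusted p under 0.05 was reached by 6, 4, 2 and 12 of the 57, against 10.9%, 14.4%, 16.2% and 15.4% of all probe sets. At 24 h 10 of those 12 were higher under CLA, against 2453 of the 4993 such probe sets overall. Without the array sets limma again called 0 at each time, with an unadjusted p under 0.05 for 1, 3, 0 and 0 members, and called 0%, 0.0246%, 0.00923% and 0% of all probe sets. With the replicate number as a block in place of the sets, 0 members were called at any time and 1 had an unadjusted p under 0.05 at 24 h.

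The 25 members that failed the filter included every probe set of 8 genes. Among them were Col2a1, the fibrillar collagen of cartilage, Col10a1 of hypertrophic cartilage, and Col17a1 of epithelial anchoring junctions. Each of these lead probe sets exceeded its array's median in at most 1 array. Over all 82 members with no filter, the difference was above 0 in 37, 45, 47 and 47 at 4, 8, 12 and 24 h, with medians of -0.00, 0.01, 0.01 and 0.03.

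**Figure D1:**
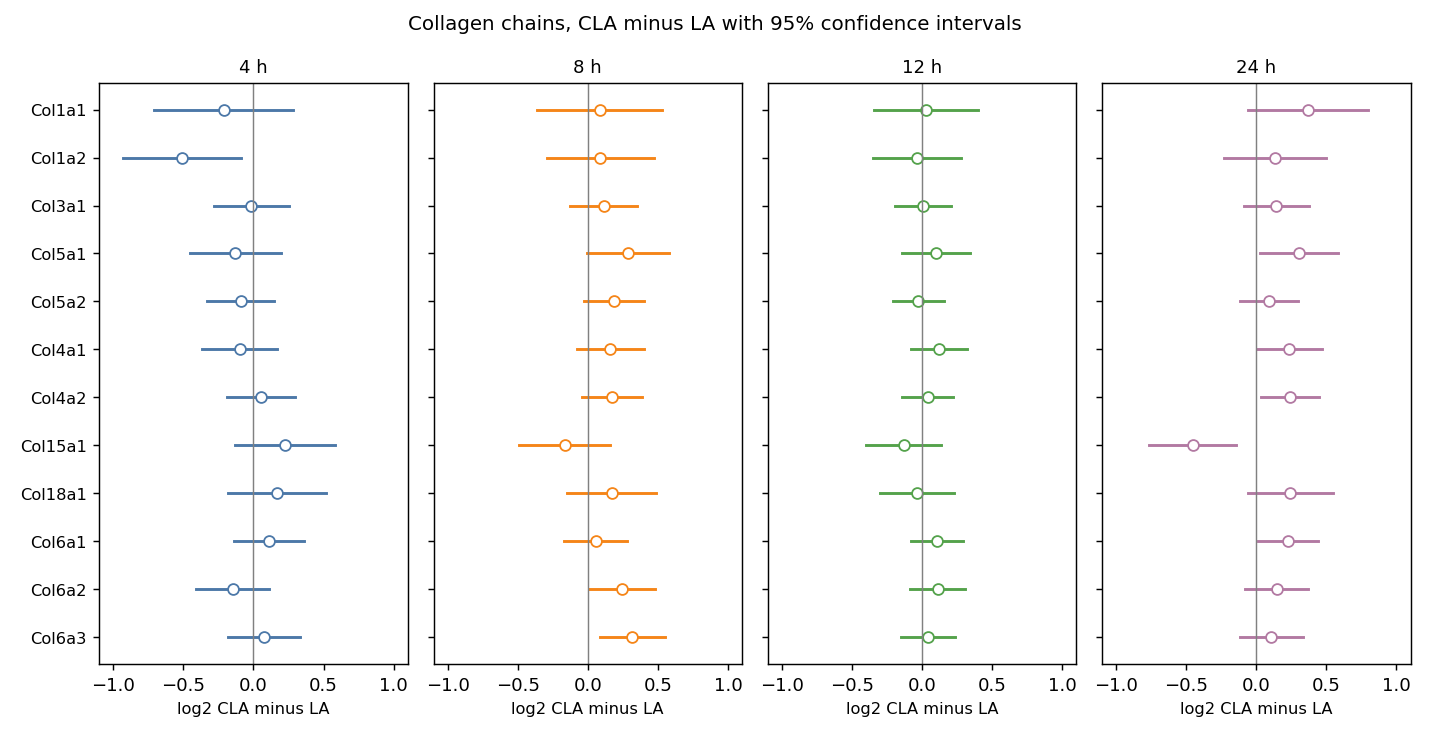
CLA minus LA difference (x axis, log2 scale) of the lead probe sets of 12 collagen genes (rows) at 4, 8, 12 and 24 h (panels), with 95% confidence intervals from limma as lines. Open circles are not past the adjusted threshold, and all are open; at 24 h, 11 of the 12 lie above 0 and Col15a1 lies at -0.45.

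No fibrillar chain passed the test, and over the 10 lead probe sets tested the 24 h differences lay between -0.29 and 0.37. Col1a1 encodes the chain that makes up most of type I collagen, the main fibre of connective tissue. At 24 h its lead probe set read 1263, 2635 and 4087 in LA replicates 1 to 3 and 1889, 3550 and 4469 in CLA replicates 1 to 3. Each CLA array was higher than the LA array of its set, yet the groups overlapped because replicates differed far more than treatments. The difference was 0.37 ± 0.21 (SE), adjusted p = 0.444, with a 95% interval from -0.06 to 0.80. At 4, 8 and 12 h it was -0.21, 0.09 and 0.03 (adjusted p 0.786, 0.921 and 0.966). The second Col1a1 probe set was lower under CLA at 4 h, by -0.87 ± 0.29 (adjusted p = 0.293). At 24 h its CLA array differed from the LA array by 0.40 in set B, 0.48 in set D and -0.14 in set E.

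Col1a2, the partner chain of type I collagen, read 5019, 4544 and 7185 in the LA arrays and 5271, 5549 and 7460 in the CLA arrays at 24 h. The CLA array was higher in all 3 sets and the groups overlapped. The difference was 0.14 ± 0.18 at 24 h (adjusted p = 0.873). It was -0.51 ± 0.20 at 4 h (adjusted p = 0.362), where a pair of values in set C, 4042 under LA and 1833 under CLA, lay furthest apart. With 2 CLA arrays at 4 h this difference rests on few values.

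Col3a1 encodes type III collagen, which forms fine fibres together with type I. Its lead probe set read 5847, 6146 and 6803 under LA and 5896, 7185 and 7802 under CLA at 24 h, again higher in all 3 sets with overlapping groups. The difference was 0.14 ± 0.11 (adjusted p = 0.680). Its second probe set gave 0.40 ± 0.14 (adjusted p = 0.104). Without CLA 24 h replicate 1 this second probe set was called, at 0.59 ± 0.14 (adjusted p = 0.0136).

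Type V collagen, which starts type I fibres and limits their width, was read through 3 chains. Col5a1 stood at 1233, 1376 and 1747 under LA and at 1361, 1883 and 2218 under CLA at 24 h, higher in each set. The difference was 0.30 ± 0.13 (adjusted p = 0.264), and at 8 h it was 0.29 ± 0.14 (adjusted p = 0.364). Col5a2 was above every LA array in the CLA arrays at 8 h, at 1630, 1630 and 2099 against 1478, 1414 and 709, where 5.83% of all probe sets showed such a separation. That separation includes CLA 8 h replicate 3 of set D and LA 8 h replicate 3 of set C, which have no partner of the other treatment in their sets. The set fit gave 0.19 ± 0.10 (adjusted p = 0.448). Col5a2 differed by 0.09 ± 0.10 at 24 h (adjusted p = 0.824), and Col5a3 by 0.16 ± 0.17 (adjusted p = 0.818).

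Col11a1, a chain of the thin fibres of cartilage, had differences below 0 at 4, 12 and 24 h and above 0 at 8 h. At 24 h it read 59.0, 105 and 259 under LA and 35.9, 63.6 and 246 under CLA, lower in all 3 sets with overlapping groups. The differences were -0.22 ± 0.10 at 12 h (adjusted p = 0.273), lower in all 4 sets, and -0.29 ± 0.11 at 24 h (adjusted p = 0.186). At 4 h it was -0.15 ± 0.13 and at 8 h 0.09 ± 0.12 (adjusted p 0.714 and 0.817), higher in both sets with a pair at 8 h, or 0.73 ± 0.55 there without the array sets. Its second probe set gave -0.21 ± 0.12 at 24 h (adjusted p = 0.439) and was higher under CLA in set D. Without CLA 24 h replicate 3 the 24 h difference of the lead was called, at -0.43 ± 0.12 (adjusted p = 0.0466). Over the 10 fibrillar lead probe sets tested, the difference was above 0 in 4, 8, 5 and 7 at 4, 8, 12 and 24 h, with a median of 0.14 at 24 h.

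**Figure D2:**
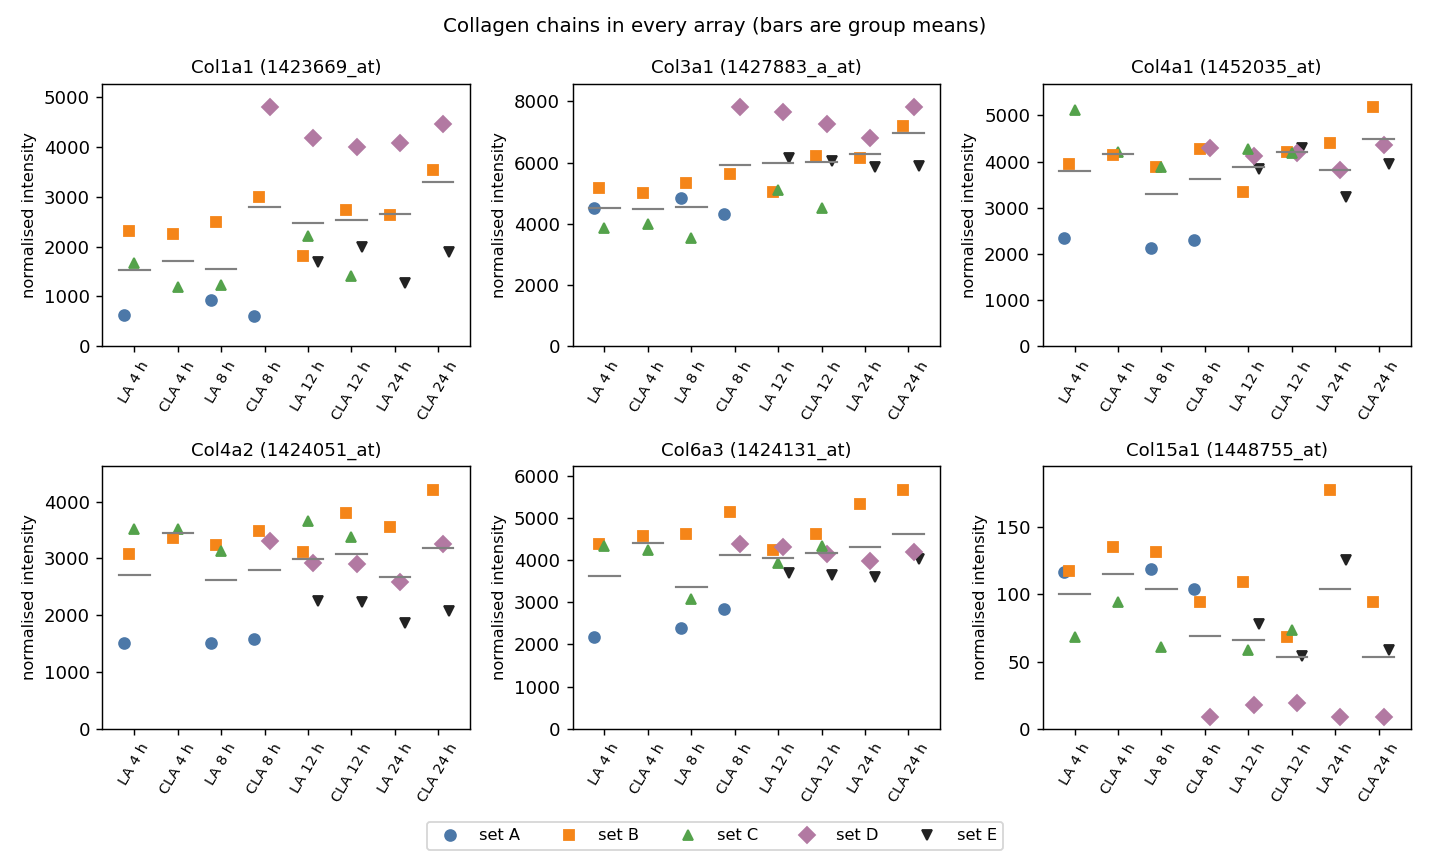
Normalised intensity (y axis, linear) of 6 collagen lead probe sets in every array, by group (x axis); symbols and colours give the array set and grey bars the group means. Col1a1 ran from 605 in set A to 4799 in set D, and Col15a1 had its 5 lowest values in the 5 arrays of set D, whatever the treatment.

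No basement membrane chain passed the test. At 24 h the differences of Col4a1, Col4a2 and Col4a5 were above 0 and those of Col15a1 and of Col4a6, a type IV chain near the floor of the array (-0.06 ± 0.09, adjusted p = 0.896), below it. Col4a1 read 3228, 4404 and 3820 under LA and 3944, 5172 and 4365 under CLA at 24 h. Col4a2 read 1855, 3558 and 2579 under LA and 2068, 4205 and 3262 under CLA. For both genes the CLA array was higher in all 3 sets while the groups overlapped. The differences were 0.23 ± 0.11 for Col4a1 (adjusted p = 0.312) and 0.24 ± 0.10 for Col4a2 (adjusted p = 0.213), the genes whose shared start region is printed above. At 4, 8 and 12 h Col4a1 differed by -0.10, 0.16 and 0.12 and Col4a2 by 0.05, 0.17 and 0.04.

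Col4a5, a type IV chain of more specialised basement membranes, read 292, 227 and 511 under LA and 396, 288 and 570 under CLA at 24 h. It was higher in each set, by 0.27 ± 0.11 (adjusted p = 0.174). The second Col4a5 probe set differed less, by -0.01 in set B, 0.20 in set D and 0.03 in set E. Col18a1, whose end fragment is endostatin, read 150, 286 and 226 under LA and 144, 458 and 262 under CLA, higher in 2 of 3 sets. Its difference was 0.24 ± 0.15 (adjusted p = 0.502).

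Col15a1, a relative of Col18a1 at the basement membrane zone, had the smallest adjusted p of all collagens at 24 h. It read 126, 178 and 8.32 under LA and 58.4, 94.1 and 8.36 under CLA. The CLA array was lower in sets E and B, while both arrays of set D sat near the floor. The difference was -0.45 ± 0.15 (95% interval -0.76 to -0.14, adjusted p = 0.0851). Leaving out LA 24 h replicate 3, one of the set D arrays, gave -0.71 ± 0.13 (adjusted p = 0.00361) and a call. At 8 and 12 h it was -0.16 and -0.13, and at 4 h 0.23 (adjusted p 0.717, 0.730 and 0.657). Over the 7 basement membrane leads tested, 5, 4, 5 and 5 lay above 0 at the successive times, with a median of 0.23 at 24 h.

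Type VI chains join into beaded microfilaments and are abundant around fat cells. The lead probe sets of Col6a1, Col6a2 and Col6a3 were above the array's median in all 25 arrays, and those of Col6a4 and Col6a5 in 4 and 3 arrays. Col6a1 read 2872, 3550 and 3639 under LA and 3221, 4380 and 4215 under CLA at 24 h. Col6a2 read 3956, 4380 and 4316 against 4010, 5271 and 4816. Col6a3, whose cleaved end is endotrophin, read 3600, 5337 and 3977 against 4020, 5669 and 4205. Each of the 3 was higher in all 3 sets with overlapping groups. The differences were 0.22 ± 0.10, 0.15 ± 0.11 and 0.11 ± 0.11 (adjusted p 0.293, 0.653 and 0.798).

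At 8 h Col6a3 had the smallest adjusted p of all collagens, 0.149, with a difference of 0.32 ± 0.11 (95% interval 0.08 to 0.55). Its values were 2384, 4616 and 3070 under LA and 2852, 5142 and 4388 under CLA, higher in both sets that held a pair, with overlapping groups. The paired differences were smaller than the fitted one, at 0.25 in set A and 0.15 in set B. Col6a2 differed by 0.25 ± 0.11 at 8 h (adjusted p = 0.315), with paired differences of 0.17 in set A and 0.13 in set B. Both fitted values also draw on CLA 8 h replicate 3 of set D and LA 8 h replicate 3 of set C, which have no partner in their sets. Col6a4, a chain near the floor of the array, was 0.39 ± 0.13 higher at 4 h (adjusted p = 0.268). All 5 type VI leads lay above 0 at 8 h and 4 of 5 at 24 h, with a median of 0.11 at 24 h.

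The other types were mostly dim. Of their 12 lead probe sets tested, those of Col16a1 and Col20a1, which belong to collagens that sit on fibres, were above the median in all arrays. Differences of the 12 lay between -0.17 and 0.34 at 24 h, 6 of them above 0, with a median of 0.00. The highest was Col12a1, another fibre-associated chain (0.34 ± 0.18, adjusted p = 0.389), though its lead was lower under CLA in set E (-0.14). A second Col12a1 probe set differed by 0.37 in set B, -0.36 in set D and 0.08 in set E. Col20a1 (-0.17 ± 0.13, adjusted p = 0.666) and Col22a1 (-0.09 ± 0.11, adjusted p = 0.850) were the only lead probe sets of any type whose CLA arrays all lay below the LA arrays at 24 h.

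By sign alone, most of the 34 lead probe sets tested lay on the CLA side at 8, 12 and 24 h and fewer at 4 h, with none past the test. The difference was above 0 in 16, 25, 20 and 22 of them at 4, 8, 12 and 24 h, against 50.3%, 48.2%, 49.3% and 52.5% of all probe sets, with medians of -0.01, 0.07, 0.01 and 0.09. CLA was higher in every set that held a pair in 8, 15, 0 and 13 leads (24.4%, 27%, 10.4% and 20.8% of all probe sets). It was lower in every such set in 6, 8, 1 and 5 leads (24.1%, 30.7%, 10.6% and 18.2%). Every CLA array lay above every LA array in 1, 1, 0 and 0 leads (5.81%, 5.83%, 1.13% and 4.92%), and below in 1, 1, 0 and 2 leads (5.44%, 5.89%, 0.976% and 5.51%).

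Of the 15 leads that lay above the median in all 25 arrays, 14 had a difference above 0 at 24 h, with a median of 0.16. Among all 13087 probe sets of that brightness, 52.1% lay above 0 and the median was 0.01. In 11 of the 15, CLA was higher in every set at 24 h, against 27.1% of the bright probe sets. At 8 h 13 of 15 lay above 0 (46.8% of the bright probe sets), with a median of 0.11, or 0.31 without the array sets. At 12 h 11 of 15 did (49.8%), with a median of 0.04 and 0 of 15 higher in every set (15.7%). At 4 h 6 of 15 did (52.2%), with a median of -0.09. CLA was higher in every set in 8 of 15 at 8 h (29.2%) and 3 of 15 at 4 h (28.1%). Of the bright probe sets of any gene, 11.3% were called at 24 h and 6.28% at 8 h, and of the 15 collagens 0 were. These chains are made by the same cells and were read on the same arrays, so the 15 differences are not independent. The 95% intervals of the 15 reached at most 0.93 at 4 h, 0.58 at 8 h, 0.43 at 12 h and 0.80 at 24 h from 0.

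**Figure D3:**
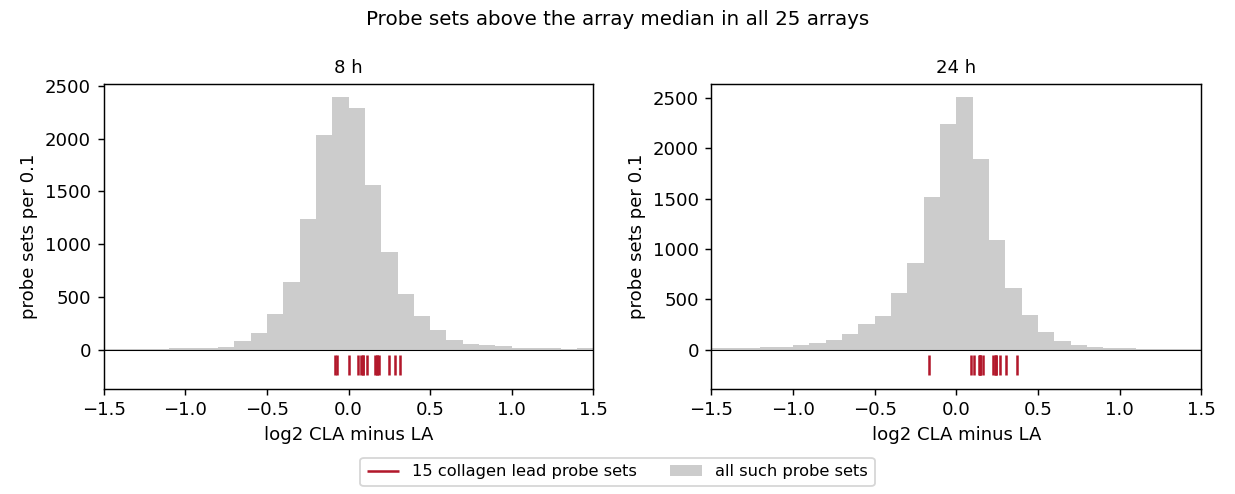
CLA minus LA difference (x axis, log2 scale) of all 13087 probe sets above the median in all 25 arrays (grey bars, number per 0.1 on the y axis) and of the 15 collagen leads among them (red ticks) at 8 h and 24 h. At 24 h, 14 of the 15 ticks lie above 0, all within the body of the grey distribution.

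Probe sets of 1 gene mostly pointed the same way at 24 h and less so elsewhere. Of 19 genes with several tested probe sets, all had 1 sign in 9, 13, 10 and 15 genes at 4, 8, 12 and 24 h. The difference of the CLA effect between 24 h and 12 h was called by limma for 0 of 57 probe sets (2 at an unadjusted p under 0.05), and for 0% of all probe sets. Change over time in the LA arrays was called for 0 of 57 (5 at an unadjusted p under 0.05), and for 0% of all. Among LA arrays, set A occurred only at 4 and 8 h and sets D and E only at 12 and 24 h. The set term can thus take up part of a change over time. Without the sets, 0 of 57 and 0% of all were called as well. Across the 15 bright leads the array set held 44.1% to 94.9% of the variance over arrays (median 82.7%). The treatment held 0.898% to 10.9% (median 4.18%) and the time 0.349% to 46.5% (median 24.2%). These shares overlap and are a description, since the sets were found from these values.

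The authors' deposited table gives 1 ratio and p-value per probe set and time. Its direction is not stated there, and it was read as CLA over LA because its log ratio correlated with CLA minus LA at 0.68 to 0.75 over the probe sets tested. In the authors' deposited table, 0, 1, 0 and 0 of the 82 collagen probe sets had p under 0.05 at 4, 8, 12 and 24 h, against 0.869%, 4.39%, 2.72% and 2.92% of all probe sets. The single one was Col6a2 at 8 h, with a ratio of 1.298 and p = 0.0405 in the authors' deposited table. For the 15 bright leads the median ratio in the authors' deposited table was 1.003, 1.29, 1.04 and 1.17, with 8, 14, 10 and 14 of them above 1. Whether these ratios and p-values allow for the array sets is not stated in the sources used here. At 8 h, CLA replicate 3 of set D and LA replicate 3 of set C had no partner in their sets. The CLA minus LA difference of these leads at 8 h had a median of 0.31 without the array sets and 0.11 with them. The Col15a1 ratio at 24 h was 0.452 (p = 0.156) in the authors' deposited table.

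Genes that modify, join, bind or regulate collagen were examined as lists. The counts below stand beside 0.0646%, 3.03%, 5.25% and 5.2% of all probe sets called at 4, 8, 12 and 24 h, higher and lower together. Of 14 tested genes for modification and folding, 1 rose at 24 h and 0 were called at 4, 8 or 12 h. A count of 1 in 14 is near the share of all probe sets. The called gene was Colgalt1, which adds galactose to collagen, by 0.42 ± 0.11 (adjusted p = 0.0252). Its values at 24 h were 334, 363 and 384 under LA and 366, 572 and 583 under CLA, which overlap. Serpinh1, the collagen chaperone HSP47, differed by 0.47 ± 0.15 (adjusted p = 0.0849). The median of the list at 24 h was 0.10.

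Of 9 tested genes for processing and crosslinking, 1 rose and 1 fell at 24 h. Loxl1, a lysyl oxidase better known for elastin, read 864, 825 and 1148 under LA and 1217, 1685 and 1705 under CLA at 24 h. All CLA arrays were above all LA arrays, and the difference was 0.67 ± 0.15 (adjusted p = 0.00852). Tgm2, a transglutaminase that crosslinks matrix proteins, read 47.2, 102 and 59.7 under LA and 13.3, 29.5 and 19.3 under CLA. It fell at 8 h by 0.45 ± 0.10, at 12 h by 0.42 ± 0.09 and at 24 h by 0.74 ± 0.10 on the log2 scale (adjusted p 0.0184, 0.00530 and 0.000119). Lox itself differed by 0.02 ± 0.20 at 24 h (adjusted p = 0.995).

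Of 7 tested collagen receptors, 1 rose and 1 fell at 24 h and 0 were called earlier. Ddr2, a receptor kinase for fibrillar collagen, read 292, 143 and 292 under LA and 434, 308 and 450 under CLA at 24 h. All CLA arrays were above all LA arrays (0.65 ± 0.15, adjusted p = 0.0111). Itga1, the integrin chain that pairs with Itgb1 to bind collagen, read 40.1, 20.5 and 35.4 against 22.8, 2.18 and 11.3. It fell by 0.41 ± 0.11 on the log2 scale (adjusted p = 0.0264), with overlapping groups.

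Of 12 tested regulators of collagen transcription, 1 rose at 8 h and 3 at 12 h, with 0 called at 4 and 24 h. Klf4 rose by 0.72 ± 0.17 at 8 h and 0.58 ± 0.14 at 12 h (adjusted p 0.0201 and 0.0158). Tgfb1, the growth factor best known for inducing collagen, rose by 0.38 ± 0.10 at 12 h, and Smad3, which carries its signal, by 0.35 ± 0.10 (adjusted p 0.0185 and 0.0378). Tgfbr2, its receptor, differed by 0.46 ± 0.14 at 24 h (adjusted p = 0.0632). None of the 8 fibril-associated genes (such as Dcn and Fn1) and none of the 10 basement membrane partners (such as Lamc1 and Nid1) was called by limma at any time, with medians of 0.18 and 0.13 at 24 h. Thbs2 had the smallest adjusted p of the fibril-associated genes at 24 h (0.36 ± 0.11, adjusted p = 0.0678).

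None of these related calls was made without the array sets or with the replicate number as a block (adjusted p 0.147 or more with the block). Over 11 other settings, these included, Tgm2 at 24 h was called in 9, Itga1 in 7, Loxl1 in 6, and Ddr2 and Colgalt1 in 5. Median centring gave adjusted p of 0.330 for Loxl1, 0.120 for Ddr2 and 0.439 for Colgalt1, no normalisation 0.446, 0.203 and 0.560, and an offset of 0.984 in place of 50 gave 0.0865, 0.182 and 0.157. At 12 h Tgm2 was called in 7 of the 11, Tgfb1 in 4, and Klf4 and Smad3 in 3, and at 8 h Klf4 in 6 and Tgm2 in 5. At 24 h Tgm2 was called whichever array was left out. Loxl1 and Ddr2 were lost without LA or CLA 24 h replicate 2 (adjusted p up to 0.102 and 0.107). The call for Colgalt1 ended without replicate 2 or 3 of either group (adjusted p up to 0.209). Itga1 was called in 1 of 6 such fits (adjusted p up to 0.135). At 12 h Tgm2 kept its call in 8 of 8 fits, Klf4 and Tgfb1 in 4 of 8 and Smad3 in 2 of 8 (adjusted p up to 0.0965, 0.119 and 0.190). At 8 h Tgm2 and Klf4 kept it in 2 of 6, and it ended without replicate 1 or 2 of either group (adjusted p up to 0.144 and 0.136).

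**Figure D4:**
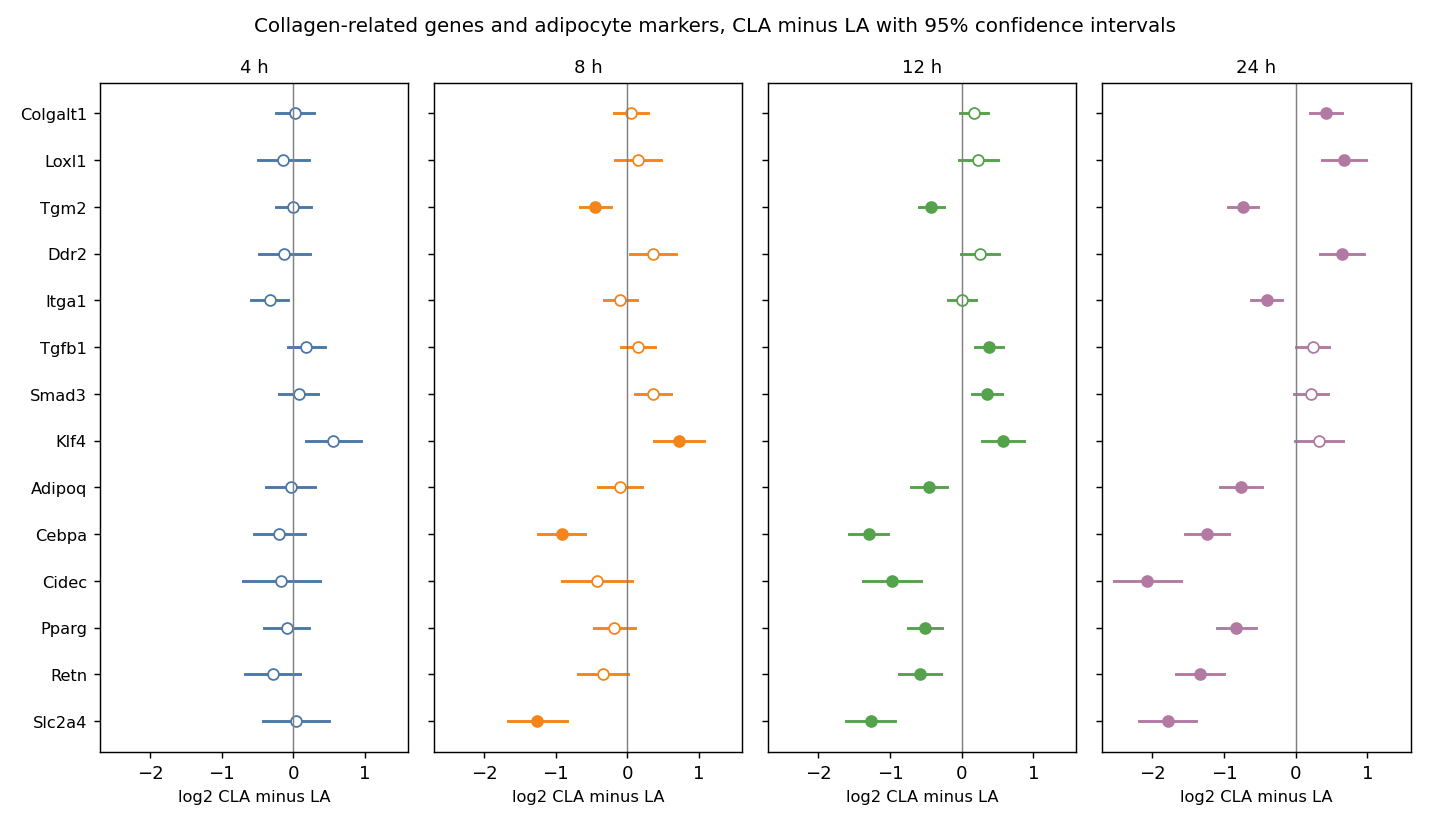
CLA minus LA difference (x axis, log2 scale) with 95% confidence intervals for 8 collagen-related genes and 6 adipocyte markers (rows) at 4, 8, 12 and 24 h (panels); filled circles have a limma adjusted p under 0.05 in the fit with array sets. Loxl1 and Ddr2 lie above 0 and Tgm2 below 0 at 24 h, where the adipocyte markers reach -2.07 for Cidec.

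Adipocyte markers fell at 8, 12 and 24 h in the fit with array sets. Of 9 tested adipocyte markers, 0, 2, 6 and 6 fell at 4, 8, 12 and 24 h and 0 rose. At 24 h Cidec, a lipid droplet protein, fell by 2.07 ± 0.22 on the log2 scale, Slc2a4, the insulin-responsive glucose transporter, by 1.78 ± 0.19, and Pparg, the master regulator of fat cells, by 0.83 ± 0.13 (adjusted p 1e-05, 1e-05 and 0.000575). Without the array sets 0 of these calls stood (lowest adjusted p 0.303, for Retn at 24 h). With the replicate number as a block the one left was Retn at 24 h (adjusted p = 0.0147), where Cidec, Slc2a4 and Pparg had 0.0825, 0.103 and 0.274. The 6 calls at 24 h stood whichever array was left out (adjusted p up to 0.0251). The summed level of the adipocyte list ran from 28949 to 39413 in LA and from 16641 to 26217 in CLA arrays at 24 h. Of 8 tested preadipocyte and fibroblast markers, limma called 0 at each time, with a median of 0.43 at 24 h. Their summed level (9 genes) ran from 9254 to 13927 in LA and from 14164 to 15658 in CLA arrays at 24 h, and the ranges do not overlap. Of all single probe sets tested, 4.92% had every CLA array above every LA array at 24 h. The sum gives most weight to bright genes such as Vim (3197 to 6431 over all arrays). Of the defining markers in that list, Pdgfra differed by 0.43 ± 0.15 (adjusted p = 0.115), Thy1 by 0.50 ± 0.17 (adjusted p = 0.115), and Cd34 was above the array median in 0 arrays. Dlk1, another of them, was above the array median in 25 arrays and was not called. The part of these marker levels in the collagen differences was not tested. The median difference of the adipocyte list was -0.09, -0.18, -0.51 and -0.83 at 4, 8, 12 and 24 h. That of the bright collagen leads was -0.09, 0.11, 0.04 and 0.16. In such bulk RNA, fewer cells of a type and less RNA per cell cannot be told apart.

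Macrophage and endothelial markers were in part above the array's median. Of 5 tested macrophage markers and 1 tested endothelial marker, limma called 0 at each time. The summed macrophage list (7 genes) ran from 125 to 178 in LA and from 147 to 211 in CLA arrays at 24 h, with Csf1r and Adgre1 above the array median in 25 arrays, Cd68 in 15, Lyz2 in 11, Lyz1 in 10, and Ptprc and Itgam in 1 each. The endothelial list (4 genes) summed to 8.98 to 17.98 in LA and 3.59 to 10.9 in CLA arrays, with Cdh5 above the median in 7 arrays, Tek and Kdr in 1 each, and Pecam1 at 0 in all 25.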

How the data were processed

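The deposited values are intensities on a linear scale, 1 for each probe set on each array. How they were summarised and scaled is not given in the sources used here. Of the values, 21.6% lie at or below 0, so some form of subtraction probably preceded the deposit. Its kind is not given. Per the file headers, the authors' deposited tables hold for each probe set a ratio, its size as a fold change, a log10 ratio, an error of that log10 ratio and a p-value. Their file names point to Rosetta Resolver. In all, 8 columns of group intensities in them were not used.

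Values were floored at 0, 50 was added, log2 was taken and the arrays were quantile normalised. Tests used R 4.3.3 and limma 3.58.1 (lmFit, eBayes) on 32488 probe sets and all 25 arrays, with 8 group means and 5 array sets as terms (13 residual degrees of freedom). The sets came from average-linkage clustering on 1 minus Pearson's correlation, and 3 linkage rules gave the same sets. Scripts were tested on simulated data. For arrays, their number limits the precision.

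Probe sets were named through the platform annotation (34958 with 1 symbol, 932 with several, 9211 with none), and 0 collagen members had several symbols. Start-region sequences are RefSeq's (GRCm38.p6). The collagen members, the gene lists, the tests and the alternatives were chosen with earlier results of these data known. The rule for naming genes was: 12 key collagens always, other members by counts and ranges, and up to 4 called members of each related list by the smallest p. Since no collagen was called, the rule gave no further names. Other collagens were named for their size or p after their values were seen, and related genes that were not called likewise.

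Same-numbered LA and CLA arrays deviated together from their group means at 8 h (correlations 0.15 to 0.60), 12 h (0.50 to 0.86) and 24 h (0.68 to 0.74). At 4 h replicate 2 did (0.54) and replicate 1 did not (-0.41). The pairing comes from the replicate numbers in the titles.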

Additional observations from a re-analysis of the deposited data

How the results depend on the processing

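The count of called collagen probe sets was 0 of those tested at 4, 8 and 12 h, in the change over time and in the 24 h minus 12 h effect, under every alternative run for each. These were no array sets, the replicate block, offsets of 0.984 and 16, median centring, no normalisation, no filter or a filter at 13 arrays, 1 probe set per gene, without set C, and each array left out in turn (0 to 0). Without the 2 arrays of high actin ratio, an alternative chosen after seeing the data and run for the treatment comparisons, it was also 0. At 24 h it was 0 except for 1 with no filter (a dim Col12a1 probe set, -0.16 ± 0.04, adjusted p = 0.0331) and 0 to 1 over the left-out arrays. The 1 came without LA 24 h replicate 3 (Col15a1), CLA 24 h replicate 1 (Col3a1) or CLA 24 h replicate 3 (Col11a1), a different gene each time. The cause was not tested. With the replicate block the count was 0 in each comparison, and all probe sets called at 24 h numbered 62 in place of 1688. The 12 members with an unadjusted p under 0.05 at 24 h became 1 at the offset of 0.984, 4 at the offset of 16 or with median centring, and 3 without normalisation. Of the 12 key collagens, 11 lay above 0 at 24 h in each of these fits that reported them singly except median centring, where 10 did and Col5a2 was at -0.01. Over their 384 alternative values, 365 kept their sign and 19 changed it with neither value called. A change of filter leaves each difference as it was. So do dropping the array sets and the replicate block at 12 and 24 h, where each set held the same number of LA and CLA arrays. In those fits the sign could not change, so these counts overstate how far the signs were tested. Groups of 2 to 4 arrays limit what can be detected, and members near the floor have little measurable range.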
